A study of Mus musculus with 9 samples.

Results

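Cholesterol synthesis genes were examined in C57BL6 mouse lung, in a model of asthma that uses ovalbumin (OVA), an egg white protein, as the allergen. The 8 genes were Hmgcs1, Idi1, Fdps, Fdft1, Sqle, Lss, Sc5d and Dhcr7. They were taken by name, as every probe set whose only gene symbol in the array's annotation is 1 of these 8, which gave 12 probe sets of 12422 and 8 genes of 8251. They were proposed with their values on these same arrays already known, so their differences between groups are described below with no p-value for any of them. Counts of those past a threshold are descriptions too. The working name of the group also mentioned uptake, but all 8 encode enzymes of synthesis and none of them takes up cholesterol. Genes of uptake are given separately.

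Total RNA was measured on 9 Affymetrix mouse arrays in 3 groups of 3. Mice of the first group were challenged with OVA and also received an EP3 agonist. EP3 is a receptor for prostaglandin E2. Those of the second were challenged with OVA alone, and both carry a time of 24 h in their titles. Those of the third were challenged with saline. All 3 groups belong to the same OVA-induced model and share the C57BL6 strain. The labels name no agonist, dose, route, sensitization schedule, age or sex, and they leave unstated whether the arrays of a group come from separate mice.

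Cholesterol is built from acetyl-CoA through mevalonate, farnesyl diphosphate, squalene and lanosterol. When sterols in the endoplasmic reticulum run low, the transcription factor SREBP-2, encoded by Srebf2, is released and turns on most of these enzymes together with the LDL receptor, which takes up cholesterol from blood. In lung, cholesterol is the main neutral lipid of surfactant, and alveolar macrophages take up and clear surfactant lipid. RNA of a whole lung mixes these cells, so more cells of a type and more RNA per cell cannot be told apart in any value below.

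RefSeq promoter windows were matched by gene ID for 5 of the 8 genes, with 7 transcript starts in all. They are shown because SREBP-2 is known to act on such promoters through the sterol regulatory element, usually beside a CCAAT box bound by NF-Y. Each run is the 150 bases before a transcript start, 5′ to 3′ on the gene's strand (RefSeq, GRCm38.p6). Capitals mark the core letters TCACNCCAC of a sterol regulatory element, and CCAAT or its reverse complement ATTGG. The Dhcr7 window belongs to the third of its 3 starts. The windows of its other starts held neither marked motif and are not printed.
Hmgcs1, chr13:119690201-119690350, plus strand: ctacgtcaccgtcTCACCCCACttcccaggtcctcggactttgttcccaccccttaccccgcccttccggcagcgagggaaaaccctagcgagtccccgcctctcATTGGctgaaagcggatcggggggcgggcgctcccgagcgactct
Idi1, chr13:8885456-8885605, plus strand: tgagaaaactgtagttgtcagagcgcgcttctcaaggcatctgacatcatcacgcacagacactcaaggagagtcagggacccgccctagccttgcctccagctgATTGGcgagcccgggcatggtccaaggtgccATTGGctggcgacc
Lss, chr10:76531455-76531604, plus strand: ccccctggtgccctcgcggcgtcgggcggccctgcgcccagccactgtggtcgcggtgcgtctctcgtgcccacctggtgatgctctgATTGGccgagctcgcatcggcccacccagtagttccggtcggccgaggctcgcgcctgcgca
Sc5d, chr9:42264301-42264450, minus strand: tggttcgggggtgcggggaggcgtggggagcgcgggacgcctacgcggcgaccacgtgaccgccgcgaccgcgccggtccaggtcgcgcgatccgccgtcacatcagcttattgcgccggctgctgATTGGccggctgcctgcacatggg
Dhcr7, chr7:143830064-143830213, plus strand: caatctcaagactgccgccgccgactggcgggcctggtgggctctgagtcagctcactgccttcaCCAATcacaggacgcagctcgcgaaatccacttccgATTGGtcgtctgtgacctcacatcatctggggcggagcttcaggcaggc

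The search covered the 250 bases before each start on both strands, with 4 motifs whose matches did not overlap in these windows. TCACNCCAC matched in 1 of the 7 windows, that of Hmgcs1, 137 bases before the start, and in 1.05% of 32851 RefSeq mouse promoters. CCAAT matched in 5 of 7 windows, at least 1 for each of the 5 genes, against 33.8% of all promoters. The Hmgcs1 window held 3 CCAAT matches, 237, 176 and 45 bases before the start. In Idi1 the 2 matches lay 45 and 14 bases before the start. The single match of Lss lay 62 bases and that of Sc5d 24 bases before the start, and the third start of Dhcr7 had matches at 85 and 49 bases. The GC box GGGCGG matched in 6 of 7 windows and in 32.7% of all promoters, and the E-box CACGTG in 2 of 7 windows and in 6.02% of all. A match describes letters in a window and nothing about binding.

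Values are intensities after each array was scaled to a common trimmed mean. An intensity above 44.7 counted as above the detection limit, and testing required 3 or more of the 9 arrays above it. Between 59.6% and 60.6% of all probe sets lay above the limit on each array. Of the 12 probe sets of these genes, 10 passed, at least 1 for each gene. Dhcr7 passed through the 3 OVA arrays and agonist array 3 alone, and Lss had only 3 of 9 arrays above the limit. The 2 that failed were further probe sets for Fdps, with intensities from -47.3 to -19.3 and from -1120 to -665 on all arrays. Intensities of different probe sets are not comparable as amounts of RNA.

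Agonist array 3 was less like agonist arrays 1 and 2 than these were like each other. Across all tested probe sets, its Pearson r was 0.880 with array 1 and 0.879 with array 2, against 0.914 between them. With OVA arrays 1 to 3 it had r = 0.870, 0.881 and 0.904, and with saline arrays 1 to 3 r = 0.881, 0.881 and 0.851. Agonist array 2 in turn correlated more with saline array 2 (r = 0.923) than with agonist array 1. Probe sets are not independent replicates, and these r describe the arrays alone. The agonist differences of the cholesterol genes are given below with and without agonist array 3.

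The cholesterol genes were mostly brighter in OVA lungs than in saline lungs, and the agonist group lay between them. By the brightest probe set of each gene, 6 of 8 had a higher estimate in OVA lungs than in saline lungs, as 40% of all tested probe sets did. The median log2 change was 0.52, against -0.08 over all tested probe sets. Agonist minus OVA, 8 of 8 estimates were below 0, as 41.8% of all were, with a median of -0.25 against 0.06 over all. The sign of Lss is no usable count, since its agonist arrays all lay below the detection limit, and without agonist array 3 its estimate was above 0. Agonist minus saline, the median was 0.25 against -0.00 over all. Each pair of these contrasts has a group in common, such as the OVA arrays in the first 2, so the 3 medians are not independent.

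**Figure D1:**
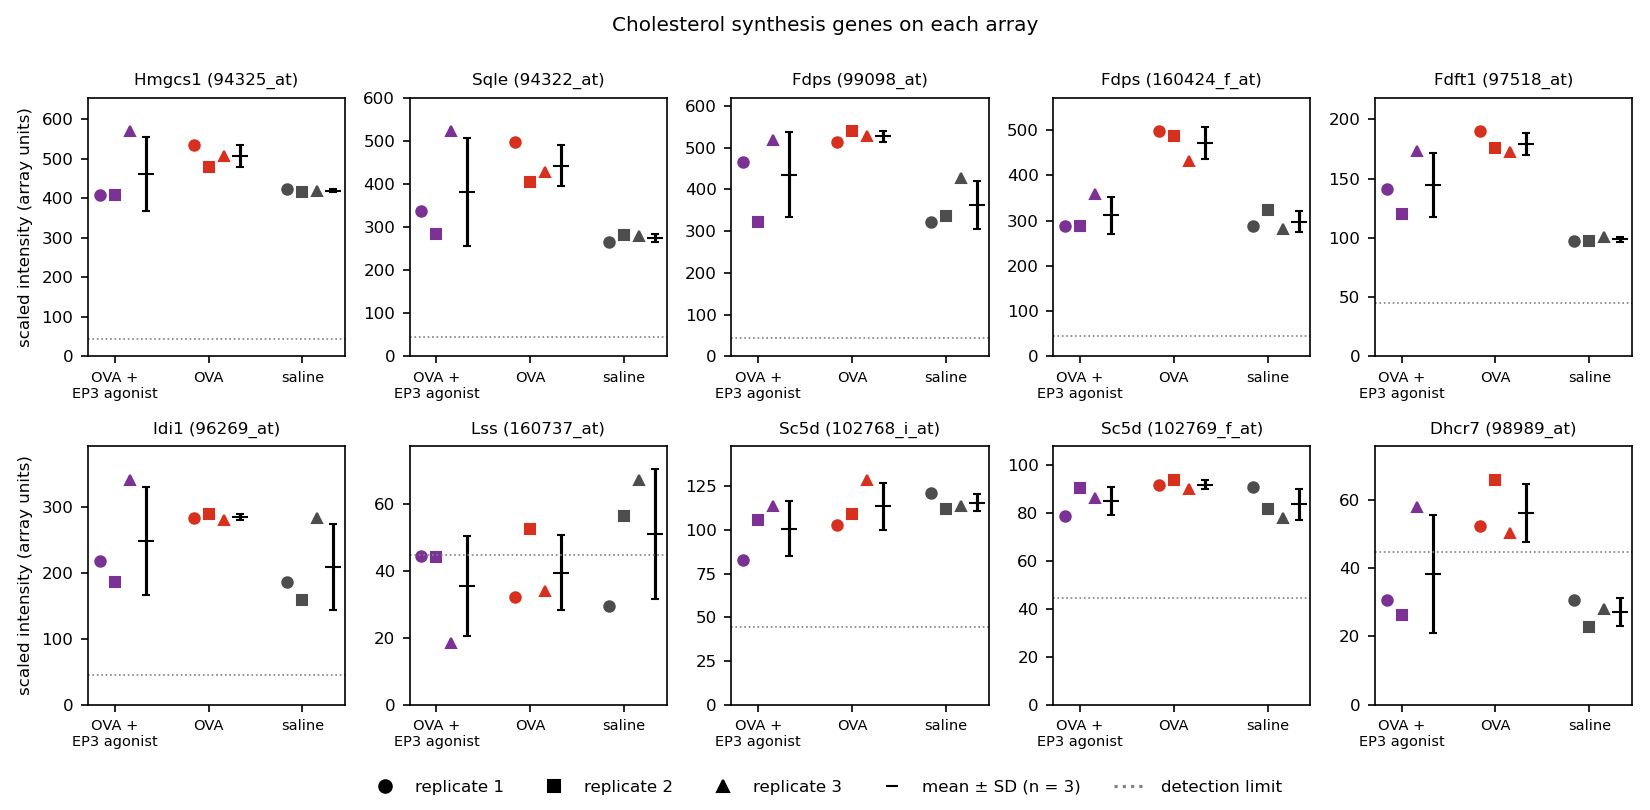
Scaled intensity of the cholesterol synthesis genes on each array, 1 panel per tested probe set, with the OVA plus EP3 agonist, OVA and saline groups from left to right, 1 point per array, bars for mean ± SD (n = 3) and a dotted line at the detection limit. For Fdft1 the saline arrays lie between 97.3 and 101 and the OVA arrays between 173 and 189.7, while agonist array 3 is level with the OVA group.

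Hmgcs1, at the head of the route to mevalonate, makes HMG-CoA in the cytosol. Its intensity was 407, 408 and 569 on the agonist arrays, 536, 480.4 and 507 on the OVA arrays, and 424, 416 and 419 on the saline arrays. The OVA and saline groups did not overlap, while 2 agonist arrays lay below every saline array and the third above every OVA array. The log2 change was 0.27 ± 0.14 (SE) between OVA and saline and -0.15 between agonist and OVA. Without agonist array 3, agonist minus OVA was -0.32, and agonist minus saline was -0.04 in place of 0.12.

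Idi1 converts isopentenyl diphosphate to dimethylallyl diphosphate, the starter of all longer isoprenoids. It gave 219, 186 and 341 on the agonist arrays, 283, 289 and 281 on the OVA arrays, and 186, 158 and 283 on the saline arrays. The OVA arrays were nearly level, but saline array 3 reached them, so the groups overlapped. OVA minus saline, the log2 change was 0.49 ± 0.27 (SE), and agonist minus OVA it was -0.24. Without agonist array 3, agonist minus OVA was -0.50, and agonist minus saline was -0.01 in place of 0.24.

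Fdps makes farnesyl diphosphate, from which sterols, ubiquinone and the lipid anchors of proteins are drawn. With its brighter probe set it gave 467, 322 and 519 on the agonist arrays, 513, 539 and 529 on the OVA arrays, and 323, 337 and 427 on the saline arrays. With the other, whose identifier ends in _f_at, the values were 287, 288 and 358 on the agonist arrays, 497, 486 and 431 on the OVA arrays, and 288, 324 and 281 on the saline arrays. In both, every OVA array exceeded every saline array, and in the second every agonist array lay below every OVA array. The suffix _f marks probes that can match several related sequences, so that probe set may read more than Fdps.

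OVA minus saline, the log2 change of Fdps was 0.55 ± 0.19 (SE) with the first probe set and 0.66 ± 0.12 with the second. Agonist minus OVA, it was -0.30 and -0.60. The second probe set thus had an agonist level near saline, with a difference of 0.06, and the first lay 0.25 above saline. Without agonist array 3, agonist minus OVA was -0.44 and -0.71, and agonist minus saline was 0.11 and -0.05.

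Fdft1, squalene synthase, commits farnesyl diphosphate to sterols. Its intensity was 141, 119.8 and 173 on the agonist arrays, 189.7, 176 and 173 on the OVA arrays, and 97.3, 97.6 and 101 on the saline arrays. Every OVA array and every agonist array exceeded every saline array, and agonist array 3 was level with the lowest OVA array. OVA was 1.82-fold saline (log2 change 0.86 ± 0.13, SE). Agonist minus OVA was -0.33 and agonist minus saline 0.54, and without agonist array 3 these were -0.46 and 0.40.

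Sqle, squalene epoxidase, is the first oxygen-requiring step and a control point of the pathway. It gave 338, 285 and 523 on the agonist arrays, 498, 405 and 428.5 on the OVA arrays, and 265, 283 and 279 on the saline arrays. All OVA and all agonist arrays lay above all saline arrays, with agonist array 2 only just above and agonist array 3 the brightest of the 9. OVA was 1.60-fold saline (log2 change 0.68 ± 0.21, SE). Agonist minus OVA was -0.26 and agonist minus saline 0.42, and without agonist array 3 these were -0.51 and 0.17.

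Lss, lanosterol synthase, closes the sterol ring. It lay around the detection limit, with 44.4, 44.0 and 18.3 on the agonist arrays, 32.1, 52.3 and 33.8 on the OVA arrays, and 29.5, 56.3 and 67.2 on the saline arrays. The groups overlapped, and the 3 arrays above the limit were OVA array 2 and saline arrays 2 and 3. Its log2 change OVA minus saline was -0.33 ± 0.44 (SE), smaller than its own error, and -0.23 with all values held at the limit. Agonist minus OVA, it was -0.22, and -0.08 with all values held at the limit. Without agonist array 3, whose value is the lowest of the 9, agonist minus OVA turned to 0.20. No direction can be read for this gene.

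Sc5d, sterol C5-desaturase, works near the end of the pathway. With its brighter probe set it gave 83.0, 106 and 114 on the agonist arrays, 103, 109 and 129 on the OVA arrays, and 121, 112 and 114 on the saline arrays. With the other it gave 78.7, 90.5 and 86.2 on the agonist arrays, 91.6, 94.0 and 90.1 on the OVA arrays, and 91.0, 81.8 and 78.1 on the saline arrays. The groups of OVA and saline overlapped in both. OVA minus saline, the log2 change was -0.03 ± 0.14 (SE) with the first and 0.14 ± 0.09 with the second. Agonist minus OVA, it was -0.18 and -0.11, and without agonist array 3 -0.27 and -0.12.

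Dhcr7 encodes the last enzyme before cholesterol, which reduces 7-dehydrocholesterol, also the precursor of vitamin D. Its intensity was 30.7, 26.1 and 58.0 on the agonist arrays, 52.2, 65.9 and 50.4 on the OVA arrays, and 30.7, 22.6 and 28.0 on the saline arrays. All OVA arrays lay above the detection limit and all saline arrays below it, so OVA was at least 1.25-fold saline, the geometric mean of the OVA arrays over the limit. Among the agonist arrays, array 3 alone exceeded the limit. The unbounded log2 estimate was 1.05 ± 0.29 (SE) OVA minus saline and -0.63 agonist minus OVA, and -0.19 in the second contrast with all values held at the limit. Without agonist array 3, the unbounded estimate agonist minus OVA was -0.98, and agonist minus saline was 0.07 in place of 0.42.

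In these comparisons, limma's adjusted p was under 0.05 for 9.49% of all tested probe sets OVA minus saline, 2.75% agonist minus OVA and 0.0758% agonist minus saline. Of the 10 tested probe sets of the cholesterol genes, 2 were among those called OVA minus saline, Fdft1 and the second Fdps probe set. Both were higher, as 5.08% of all were. Agonist minus OVA, 1 of 10 was called, the second Fdps probe set, which was lower, as 1.5% of all were. It was also the only one of the 10 with all agonist arrays below all OVA arrays, where 12% of all probe sets had that order. Agonist minus saline, limma called 0 of 10, and 1 had an unadjusted p under 0.05, as 7.71% of all tested probe sets had. By the brightest probe set, 5 of 8 genes had all OVA arrays above all saline arrays (Hmgcs1, Fdps, Fdft1, Sqle and Dhcr7), where 15.5% of all tested probe sets did. Dhcr7 entered through its OVA arrays, so the filter left it little room for another order, and 4 of the other 7 genes had this order. All agonist arrays exceeded all saline arrays in 2 of 8 genes, Fdft1 and Sqle, where 6.65% of all probe sets did. These counts describe genes chosen on these arrays.

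**Figure D2:**
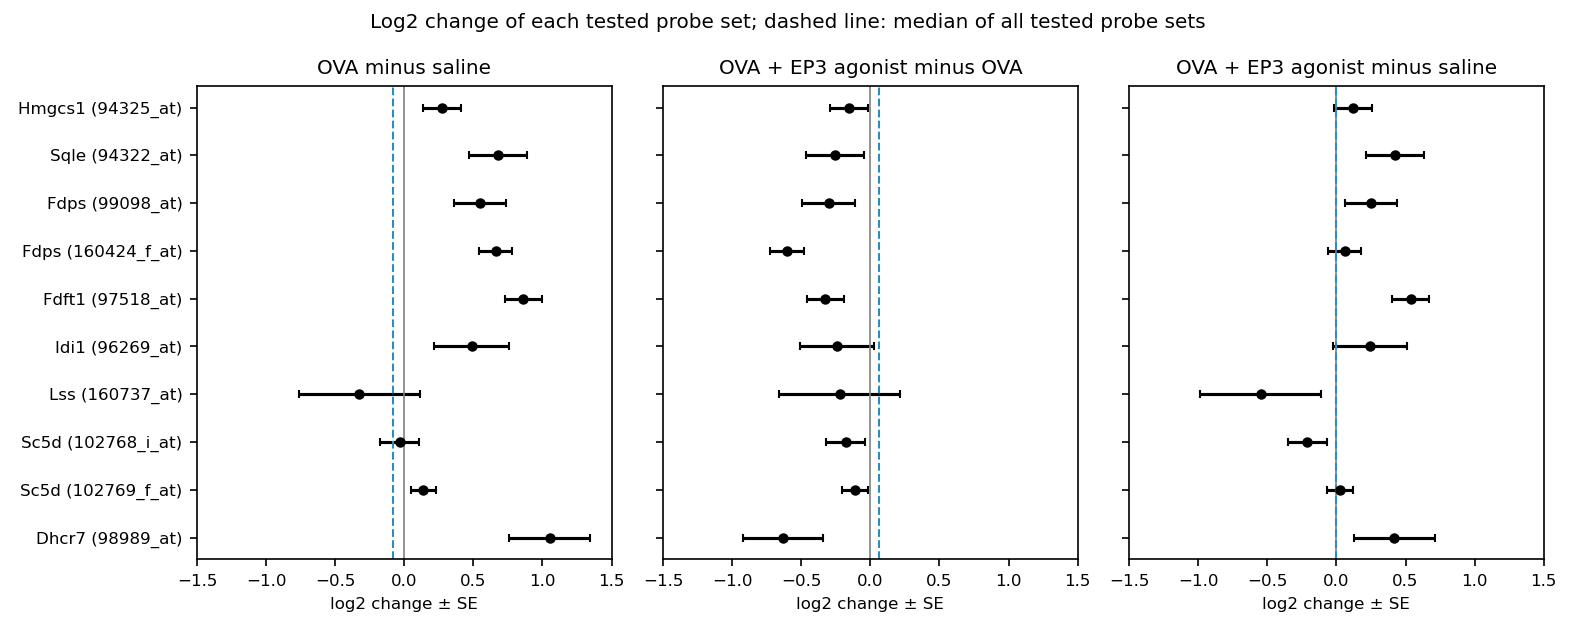
Log2 change with its standard error for each tested probe set of the cholesterol synthesis genes, with 1 panel per contrast and a dashed line at the median of all tested probe sets. The OVA minus saline estimates run from -0.33 for Lss to 1.05 for Dhcr7, and the agonist minus OVA estimates are all below 0.

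The 3 agonist arrays differed among themselves in these genes. Agonist array 3 was the brightest of the 3 for 7 of 8 genes, where it was so for 36.7% of all tested probe sets. It was at or above the lowest OVA array for 7 of 8 genes and above the highest OVA array for 3, Hmgcs1, Sqle and Idi1. Agonist arrays 1 and 2 reached the lowest OVA array for 1 and 2 of 8 genes. They were at or below the highest saline array for 4 and 6 of 8 genes, and array 3 for 2.

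The mean of the 8 genes, each centred on its own mean over the 9 arrays, put this in 1 figure per array. On the log2 scale it was -0.09, -0.24 and 0.19 on the agonist arrays, 0.22, 0.30 and 0.21 on the OVA arrays, and -0.30, -0.26 and -0.04 on the saline arrays. Agonist array 3 was thus near the OVA arrays and arrays 1 and 2 nearer the saline arrays, with saline array 3 the highest of its group. Without agonist array 3, the median log2 change of the 8 genes was -0.45 agonist minus OVA and 0.033 agonist minus saline. Without agonist array 2 it was -0.15 and 0.44.

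**Figure D3:**
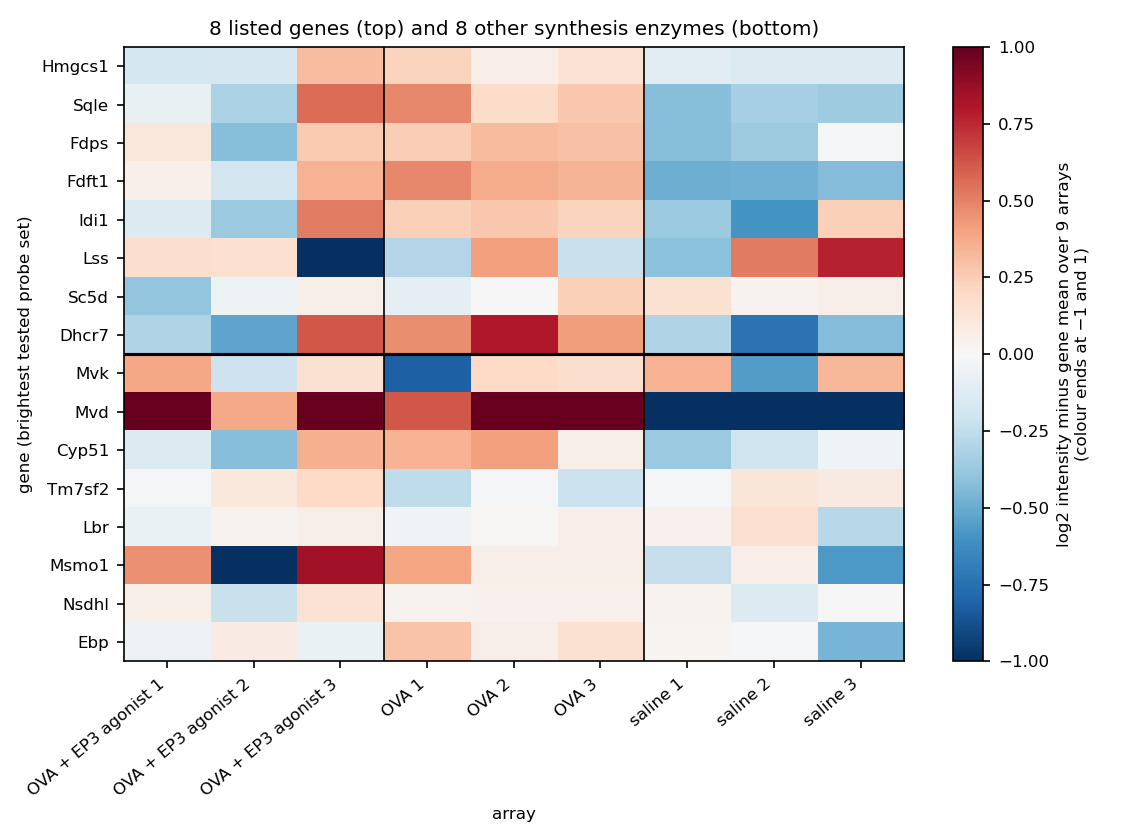
Log2 intensity of the 8 cholesterol synthesis genes (top) and of 8 other enzymes of the pathway (bottom) on each array, centred on each gene's mean over the 9 arrays, with the agonist, OVA and saline arrays from left to right. For 7 of the 8 synthesis genes, agonist array 3 is the highest of the agonist arrays.

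Macrophages handle much lipid, and their markers were read on the same arrays. The summed intensity of 15 macrophage markers was 11499, 11625 and 15464 on the agonist arrays, 17285, 18470 and 16942 on the OVA arrays, and 9080, 10097 and 9670 on the saline arrays. All 15 were in the table, and Marco, a receptor typical of alveolar macrophages, was below the limit everywhere. The OVA arrays had the highest sums and the saline arrays the lowest, with agonist array 3 above agonist arrays 1 and 2. Between OVA and saline, limma called 10 of 13 tested macrophage markers higher and 1 lower in OVA lungs. Of all tested probe sets, 5.08% were called higher and 4.42% lower. What part this has in the cholesterol genes was not tested.

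Summed markers of other cell types differed too. B and plasma cell markers (8 of 10 in the table) summed to 2189, 2958 and 3819 on the agonist arrays, between 3849 and 4520 in OVA lungs and between 2548 and 3147 in saline lungs. The summed intensity of 11 cell cycle genes was 975, 1260 and 1475 on the agonist arrays, 1666 to 2199 in OVA lungs and 1016 to 1372 in saline lungs. Both sums were highest in OVA lungs, and among the agonist arrays highest on array 3. The B and plasma cell sum does not describe every marker in it. Limma called 1 of 7 tested higher OVA minus saline, with 5 estimates above 0 and 2 below. Of the cell cycle genes, 4 of 9 tested were called higher, where 5.08% of all tested probe sets were. Smooth muscle markers (8 of 8) summed to 6439, 6257 and 6767 on the agonist arrays, between 7209 and 8681 in OVA lungs and between 5451 and 6144 in saline lungs. OVA minus saline, limma called 4 of 8 higher, where 5.08% of all tested probe sets were. The part of these cells in the cholesterol genes was not tested either. Endothelial, adipose and alveolar markers did not share this order. The sum of 12 endothelial markers ran from 14718 to 15359 in the agonist group, from 11421 to 12349 in OVA lungs and from 15101 to 15354 in saline lungs. Adipose markers (6 of 8 in the table) summed to between 689 and 901 in the agonist group, 365 and 433 in OVA lungs and 617 and 731 in saline lungs. Alveolar type 2 markers (8 of 12), which include the surfactant proteins, gave between 33646 and 35010 in the agonist group, 28536 and 33189 in OVA lungs and 29755 and 34165 in saline lungs, so the tissue reads as lung on all 9 arrays.

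The sum of 10 granulocyte markers was 4774, 1366 and 4370 on agonist arrays 1 to 3, between 1157 and 1341 in OVA lungs and between 1197 and 1233 in saline lungs. Agonist arrays 1 and 3 were thus apart from the other 7 in this sum. Limma called 0 of 6 tested granulocyte markers in each contrast, where 0.0758% to 9.49% of all tested probe sets were called. What part granulocytes have in the cholesterol genes was not tested. The eosinophil granule genes Prg2 and Epx were below the limit on all arrays, as were Ngp and Il5ra of the same list.

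**Figure D4:**
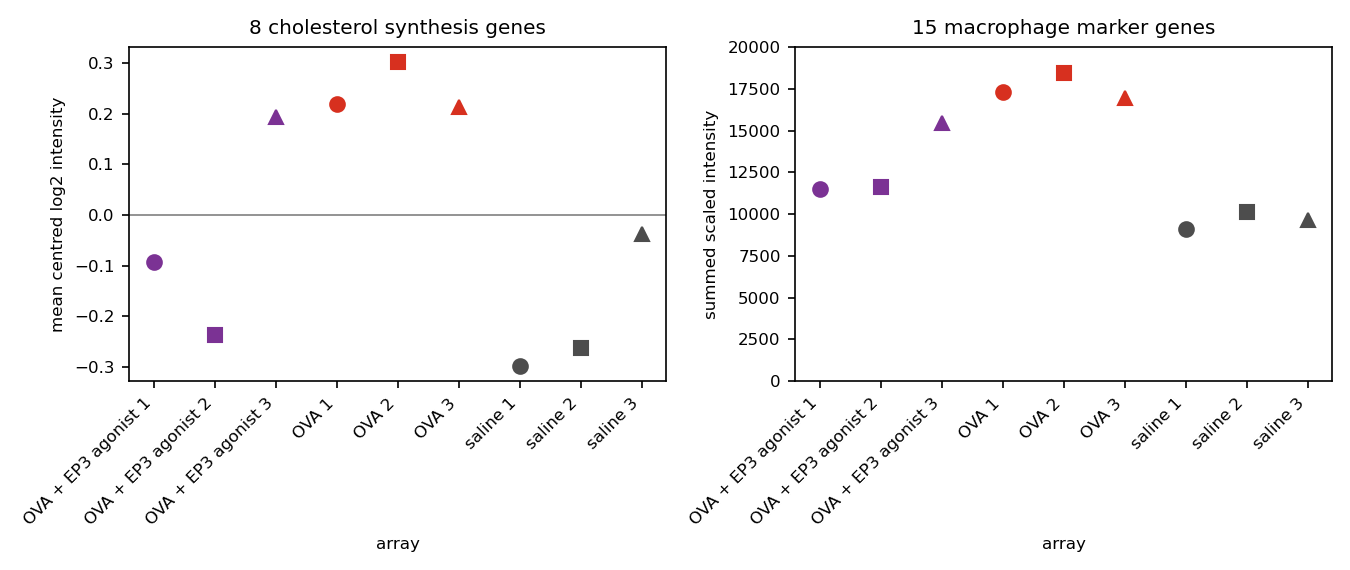
Mean centred log2 intensity of the 8 cholesterol synthesis genes on each array, beside the summed scaled intensity of the macrophage markers on the same arrays, with the agonist, OVA and saline groups marked. Agonist array 3 has 0.19 and 15464, against -0.24 and 11625 on agonist array 2.

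The rest of the pathway was read from 6 lists that do not hold the 8 genes, with 45 genes tested of 50 in the table. They are other synthesis enzymes, sterol regulators, uptake and transport, efflux and storage, fatty acid synthesis, and the isoprenoid branch. OVA minus saline, 4 of the 45 rose and 2 fell by limma's adjusted p, where 5.08% of all probe sets were called higher and 4.42% lower. Without OVA array 1, OVA array 2 or saline array 3, 1 of 44 still tested was called, and without saline array 1, 2 of 45. Agonist minus OVA, 1 of 45 fell, where 1.5% of all were called lower. Agonist minus saline, limma called 0 of 45, and 4 had an unadjusted p under 0.05, as 7.71% of all probe sets had.

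The median log2 change of the 8 other synthesis enzymes tested was 0.19 OVA minus saline. Of these enzymes 1 rose in OVA lungs, where 5.08% of all tested probe sets were called higher. It was Mvd, which decarboxylates mevalonate diphosphate, with 55.7, 32.7 and 62.9 on the agonist arrays, 38.7, 86.2 and 53.0 on the OVA arrays, and 12.2, -2.66 and 5.22 on the saline arrays. All saline arrays lay below the limit and 2 of 3 OVA arrays above it. Mvd passed the filter only through OVA arrays 2 and 3 and agonist arrays 1 and 3. This left it little room for a lower value in OVA lungs than in saline lungs. The log2 change was 3.27 ± 0.53 (SE), with limma's adjusted p = 0.0179, but 0.40 with all values held at the limit, where the call was lost, as it was without OVA array 1, OVA array 2 or saline array 3 (adjusted p between 0.0167 and 0.0639 over the 9 omissions). The brightest enzymes of the list, Tm7sf2 and Lbr, both sterol C14 reductases, had log2 changes of -0.22 and 0.04 OVA minus saline.

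The sterol regulators did not pass in any contrast, with 0 of 4 tested called by limma and 2 with an unadjusted p under 0.05 OVA minus saline, where 29.1% of all probe sets had one. Srebf1, which encodes SREBP-1, had a log2 change of 0.01 OVA minus saline (adjusted p = 0.984). Its mean intensity was 477 in the agonist group, 533 in OVA lungs and 536 in saline lungs. Pgrmc1, a heme-binding membrane protein, averaged 941 in the agonist group, 657 in OVA lungs and 992 in saline lungs (adjusted p = 0.0697 OVA minus saline).

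For uptake and transport, 10 genes were tested and 1 fell in OVA lungs, where 4.42% of all tested probe sets were called lower. The list median was -0.22. Cd36, a scavenger receptor for fatty acids and oxidized lipoprotein, gave 144, 128 and 125 on the agonist arrays, 111, 89.9 and 90.0 on the OVA arrays, and 151, 129.8 and 150.1 on the saline arrays. Every OVA array was below all 6 others. The log2 change OVA minus saline was -0.57 ± 0.12 (SE), with limma's adjusted p = 0.0311, and the call was lost without any 1 of the OVA or saline arrays (adjusted p up to 0.0942). The brightest genes of the list had log2 changes of 0.05 for Npc2, which carries cholesterol out of lysosomes, and -0.34 for Lrp1, an endocytic lipoprotein receptor (adjusted p = 0.0823).

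Efflux and storage held 3 called genes of 7 tested OVA minus saline, 2 higher and 1 lower, around a list median of -0.34. Of all tested probe sets, 5.08% were called higher and 4.42% lower. Ch25h makes 25-hydroxycholesterol, an oxysterol that holds back SREBP processing. It gave 66.9, 91.5 and 100 on the agonist arrays, 220.1, 222 and 143 on the OVA arrays, and 57.9, 97.7 and 62.9 on the saline arrays. The OVA arrays lay above all 6 others, with a log2 change of 1.43 ± 0.27 (SE) from saline (limma adjusted p = 0.0241). The call was lost without OVA array 1 or 2 or saline array 1 or 3 (adjusted p up to 0.0922). Agonist minus OVA it was -1.17 (adjusted p = 0.0612).

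Cyp7b1, which breaks down 25-hydroxycholesterol, gave 80.1, 101 and 91.7 on the agonist arrays, 149, 148 and 130.2 on the OVA arrays, and 73.9, 101 and 48.4 on the saline arrays. It rose by a log2 change of 1.00 ± 0.25 (SE) in OVA lungs (limma adjusted p = 0.0450). This probe set too ends in _f_at and may read related sequences. Abcg1, which exports cholesterol to HDL and is abundant in alveolar macrophages, gave 405, 607 and 338 on the agonist arrays, 269, 260.0 and 278 on the OVA arrays, and 418, 584 and 532 on the saline arrays. It fell by 0.91 ± 0.22 on the log2 scale in OVA lungs (limma adjusted p = 0.0425). Both calls were lost in 11 of 17 alternative settings, which include leaving out each OVA array. Apoe and Pltp, the brightest of the list, had log2 changes of -0.34 and -0.39 that did not pass.

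Fatty acid synthesis held 1 called gene of 10 tested OVA minus saline, where 9.49% of all tested probe sets were called. Me1, malic enzyme, which supplies NADPH for lipid synthesis, gave 248, 242 and 305 on the agonist arrays, 482, 416 and 422 on the OVA arrays, and 219, 199.7 and 196 on the saline arrays. The OVA arrays lay above all others and the agonist arrays between. The log2 change was 1.10 ± 0.12 (SE) OVA minus saline (limma adjusted p = 0.00854), a call kept in all alternatives, and -0.74 ± 0.12 agonist minus OVA (adjusted p = 0.0363), a call lost in 10 of 17. Scd1 and Scd2, the brightest genes, had changes of 0.09 and -0.20 that did not pass. The isoprenoid branch had 0 of 6 called by limma OVA minus saline, with 2 at an unadjusted p under 0.05, where 29.1% of all probe sets were. Its brightest genes Fnta and Rabggtb had log2 changes of -0.35 and 0.15.

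To find genes whose pattern over the arrays was most like that of the 8, each tested gene's log2 value was correlated with their mean over the 9 arrays. A gene with several tested probe sets was placed by whichever had the highest r, not by its brightest. The 9 arrays share 3 groups, so these are descriptions with no p. The 5 most alike were Nfkb2 (r = 0.981), Inhba (r = 0.973), Igkv8-30 (r = 0.971), F7 (r = 0.966) and Relb (r = 0.958). Igkv8-30 was above the detection limit only on the OVA arrays and agonist array 3, and was tested through these alone. Its other values ran from -0.61 to 9.95, so its r mostly reflects presence or absence of signal. Nfkb2 was above the limit on 6 of 9 arrays. Nfkb2 and Relb encode subunits of NF-kappa-B, Inhba the activin A subunit, F7 coagulation factor VII, and Igkv8-30 an immunoglobulin light chain segment. Of the pathway lists, Cyp51, lanosterol demethylase, came 19th of 5942 genes with r = 0.938. Nsdhl, a later enzyme of sterol demethylation, came 74th with r = 0.906, and Me1 154th with r = 0.862. The place of Nsdhl rests on its best-correlated probe set alone. Its tested probe sets disagreed, with log2 changes of 0.07, 0.31 and -0.25 OVA minus saline.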

How the data were processed

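Total RNA of C57BL6 lung was read on 9 arrays. The authors deposited a linear intensity for every probe set, partly below 0, so some signal had been subtracted. How probes were summarized is not given in the sources used. Trimmed means (2% per end) of the deposited intensity lay between 138.7 and 241.2, and each array was scaled by 0.741 to 1.29 to a common trimmed mean over 12488 probe sets. Values below 3.10, the 20th percentile, were raised to it, and log2 was taken. Of 12422 probe sets that are not controls (66 are), 7920 (63.8%), for 5950 genes, had at least 3 of 9 arrays above 44.7, the 40th percentile. The annotation gave 1 gene symbol for 10833 probe sets, several for 396 and none for 1193. By gene ID, 10817 matched RefSeq (GRCm38.p6), which changed 0 symbols. The brightest tested probe set stands for a gene. In the search for alike genes, each searched gene took its probe set with the highest r.

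Groups were compared with limma 3.58.1 (lmFit, eBayes, R 4.3.3) in 1 fit of 9 arrays (residual degrees of freedom 6, prior 1.69), two-sided p adjusted by Benjamini-Hochberg over 7920 probe sets, threshold 0.05. The number of arrays limits the precision, and p-values measure only the spread between these samples, which may be technical.

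The 8 genes and all lists were chosen with earlier results of these data known. The text names the 8, every list gene that passed (at most 6 a list), the 2 brightest per list, and the 5 most alike genes. Cyp51, Nsdhl and the enzymes under other observations were named after their values were seen. The main fit did not pair arrays by replicate number. Same-numbered arrays' deviations from their group means correlated between -0.139 and 0.169, over 0.1 in 2 of 9, both between OVA and saline. With 3 arrays a group, these values cannot settle whether the numbers pair the arrays. There were 0 unused sample columns. The script was tested on simulated data.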

Additional observations from a re-analysis of the deposited data

How the results depend on the processing

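Scaling to equal medians, quantile normalization, other floors, filters and variance models, and leaving out each array were tried. For the named pathway genes, 853 of 913 alternative values stayed on the same side of the threshold, 49 lost a call and 11 gained one. Their sign changed in 28, all where no call stood. For the 8 genes, where no call was followed, 478 of 486 values kept their sign. The 8 that did not were agonist minus saline for Hmgcs1, Idi1 and the weaker Fdps and Sc5d probe sets, agonist minus OVA for Lss, and OVA minus saline for the brighter Sc5d probe set. OVA minus saline, 752 probe sets were called, 50 with the replicate block and 80 to 857 without 1 array. Of the 45 pathway genes 6 were called, 1 with the replicate block, 12 with an intensity trend and robust prior, and 1 to 6 without 1 array. Agonist minus OVA, 218 were called, 361 with the floor at the 40th percentile, 445 with the filter at the 60th, 15 in a fit of only the 6 arrays compared, 14 with the replicate block, 453 with the trend, and 7 to 526 without 1 array. Of the pathway genes, 1 was called, and under those settings 2, 3, 0, 0, 3 and 0 to 1. Agonist minus saline, 6 were called, 3 with the filter at the 60th percentile, 3 in the 6 arrays, 2 with the replicate block and 5 to 16 without 1 array. Without 1 array, the median log2 change of the 8 genes ran from 0.45 to 0.69 OVA minus saline, -0.45 to -0.15 agonist minus OVA and 0.033 to 0.44 agonist minus saline. The causes were not tested. The calls of Mvd, Ch25h and Cd36 OVA minus saline were lost with the replicate block and without single arrays. With single arrays left out, limma's adjusted p reached 0.0639, 0.0922 and 0.0942. The call of Mvd was also lost with the floor at the 40th percentile. Under the filter at the 60th percentile 5 of the 8 genes remained tested. Lss, Dhcr7 and Mvd lay near the detection limit, which limits their folds to bounds.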

Other observations

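Some further synthesis enzymes did not pass. Cyp51 gave 73.8, 60.5 and 104 on the agonist arrays, 103, 108 and 84.6 on the OVA arrays, and 62.8, 70.9 and 78.8 on the saline arrays, so every OVA array exceeded every saline array and agonist array 3 was the highest of its group. Its log2 change OVA minus saline was 0.47 ± 0.20 (SE), with limma's adjusted p = 0.172. The 3 probe sets of Nsdhl disagreed, with log2 changes of 0.07, 0.31 and -0.25 OVA minus saline. Insig1, which holds the SREBP complex in the endoplasmic reticulum and is itself a SREBP target, was above the detection limit on no array.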
